A study of Mus musculus with 4 samples.

Results

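The 8 genes described here encode the core of the Hedgehog pathway: the ligand Indian hedgehog (Ihh), the receptor Ptch1, the signal transducer Smo, the transcription factors Gli1, Gli2 and Gli3, and the inhibitors Hhip and Sufu. They were taken from the 31053 genes of the count matrix by name, for their roles in the pathway, although earlier results of these data were known at the choice. To ask which cells of a young growing bone expressed the ligand and which showed the transcripts of its target genes, their unique molecular identifier (UMI) counts were compared across the cell classes of 1 single-cell RNA sequencing library. It was made with the 10x Chromium 3′ kit from the pooled cells of both tibiae of 1 male mouse at postnatal day 6, after digestion with dispase and collagenase and with the secondary ossification centres left out. The mouse carried Col10a1Cre, which is active in hypertrophic chondrocytes (HCs), the Rosa26-Tdtomato reporter that keeps HCs and their descendants marked, 1 Irx3 allele deleted by that Cre in the HC lineage (labelled Irx3 +/Δ) and 1 mutant Irx5 allele (Irx5 +/-). It is labelled as a heterozygous control, and since no mouse with intact Irx3 and Irx5 is in the data, levels here cannot be told apart from any effect of those alleles. With 1 library there was no replicate of any class, so no test was possible. Every interval below is a 95% interval that covers counting error only. It is exact for levels and for shares of cells, and approximate for log2 ratios.

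Hedgehog ligands are secreted proteins that bind Ptch1 on the receiving cell. Without ligand, Ptch1 holds Smo inactive, Sufu restrains the Gli proteins, and repressor forms of Gli, chiefly of Gli3, keep the target genes low. With ligand bound, Smo enters the primary cilium, Gli2 and Gli3 become activators, and the cell transcribes Ptch1, Gli1 and Hhip, so that the receptor and the ligand-binding inhibitor Hhip are themselves read as targets of the signal. In the growth plate Ihh is known as the signal of prehypertrophic chondrocytes. It drives chondrocyte proliferation and osteoblast formation in the adjoining perichondrium, and it maintains the parathyroid hormone-related protein (Pthlh) made by resting cells, which delays hypertrophy through the receptor Pth1r.

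After the quality filters 8255 cells with 137250350 UMIs remained (2623 to 85279 UMIs a cell, median 13957). They formed 31 clusters, of which 29 were placed in 14 classes by marker genes that included none of the Hedgehog genes. The classes that matter most here were resting (127 cells), maturing (1059), proliferating (157) and prehypertrophic (pre-HC, 509) chondrocyte-like cells, HC-like cells (106), immature (560) and mature (404) osteoblast-like cells, Cxcl12-abundant stroma-like cells (241), and Aspn-rich fibroblast or tendon-like cells (275). All the listed markers of these classes stood at 10 CPM (the UMIs of a gene per 1000000 UMIs of the class) or more in their own class. The resting-like cluster was led by Penk, Tnni2 and Sfrp5, and Prg4, the lubricin gene of articular cartilage, was also among its 10 leading genes. It also held transcripts of fibroblasts: 10 of the 11 fibroblast or tendon markers reached 10 CPM in it (Dpt did not), against 3 of 11 in the maturing class, and their summed level was 4438 CPM in the resting-like, 1718 in the maturing and 10964 in the fibroblast or tendon-like class. Aspn stood at 74.7 CPM in resting-like and 1.30 CPM in maturing cells, and Col1a1 at 1911 and 297 CPM. Of the 11 markers Postn and Fmod are also in other lists, and without them the sums were 1117, 188 and 7193 CPM. The part of such transcripts in the resting-like levels below was not tested. The class also depended on the processing, with 97 to 526 cells in the alternatives that had one and none at a mitochondrial limit of 5%. The 2 clusters left unnamed held 175 cells, 122 of which the doublet caller Scrublet had marked. It had also marked 25 of the 157 proliferating chondrocyte-like cells. No proliferating chondrocyte-like class could be named with doublets left out, at a mitochondrial limit of 20% or at resolution 0.6. The same held with 3000 variable genes and with Hedgehog genes allowed in the clustering. Free RNA gives every droplet a few UMIs of abundant transcripts, and so the leukocyte-like cells (3091 cells, median 11627 UMIs) and the red blood cell-like cells (620 cells, median 13783.5 UMIs) are given below as the level in cells of another lineage.

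The 8 genes gave 25143 UMIs in all. Ptch1 gave 10566 UMIs in 2982 cells and Smo 4923 in 3024 cells. Gli3 (3127 UMIs) and Ihh (2971 UMIs) followed, although the UMIs of Ihh came from 615 cells only and those of Gli3 from 1982 cells. Sufu (1283 UMIs), Gli1 (1238), Gli2 (613) and Hhip (422, in 261 cells) were the most sparsely counted, and their values carry the widest intervals. All 8 genes reached 10 CPM in at least 1 class of 50 or more cells.

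In mm10 (GRCm38, GENCODE M21), Ihh lies on chr1:74945315-74951672 (minus strand), Ptch1 on chr13:63508328-63573598 (minus), Smo on chr6:29735503-29761365 (plus), Gli1 on chr10:127329882-127341974 (minus), Gli2 on chr1:118834132-119053619 (minus), Gli3 on chr13:15463235-15730026 (plus), Hhip on chr8:79965851-80058006 (minus) and Sufu on chr19:46396896-46488804 (plus). Gli1 overlaps Arhgap9 and the antisense gene Gm47200 on the opposite strand, and a strand setting of the counting is given in none of the sources, so reads from these genes may not be separable. On their own strand Ptch1 overlaps A930032L01Rik, Smo the pseudogene Gm13717 and Gli3 the pseudogene Gm48343. The RefSeq table (GRCm38.p6) held the start site of 7 of the 8 genes. The 250 bases before the start are shown for the ligand and for 2 of its targets, Ptch1 and Hhip, with every CpG in capitals, because these are the regulatory stretches next to the transcripts whose levels are compared below. The windows overlap no annotated exon of their genes, and that of Ptch1 lies inside the longer GENCODE gene.
Ihh, chr1:74951673-74951922 (minus strand): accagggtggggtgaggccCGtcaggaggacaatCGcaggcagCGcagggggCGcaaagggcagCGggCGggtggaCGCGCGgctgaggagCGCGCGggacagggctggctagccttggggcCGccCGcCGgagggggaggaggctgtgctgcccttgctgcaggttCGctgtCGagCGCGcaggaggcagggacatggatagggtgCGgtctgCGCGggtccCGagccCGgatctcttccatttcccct
Ptch1, chr13:63565736-63565985 (minus strand): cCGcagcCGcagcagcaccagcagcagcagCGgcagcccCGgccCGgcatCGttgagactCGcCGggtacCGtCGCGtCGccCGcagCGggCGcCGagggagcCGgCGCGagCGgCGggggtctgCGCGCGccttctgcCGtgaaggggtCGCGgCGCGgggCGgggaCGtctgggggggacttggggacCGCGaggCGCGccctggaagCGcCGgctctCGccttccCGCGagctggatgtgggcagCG
Hhip, chr8:80058009-80058258 (minus strand): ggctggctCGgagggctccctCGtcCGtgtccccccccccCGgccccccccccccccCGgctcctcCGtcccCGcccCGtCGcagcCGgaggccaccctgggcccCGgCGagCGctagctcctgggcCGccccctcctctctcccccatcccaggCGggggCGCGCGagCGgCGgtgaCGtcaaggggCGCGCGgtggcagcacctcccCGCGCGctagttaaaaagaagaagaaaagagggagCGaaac
The stretches held 24, 41 and 28 CpGs, respectively. With the 50 bases after the start included, the Ptch1 window had a GC content of 76.3%, at percentile 97.3 of 32851 promoters, against a median of 52.7%. Its 47 CpGs stood at percentile 98.8, where the median promoter had 7. The Gli consensus GACCACCCA was searched on both strands. The 300-base windows of the 7 genes held no exact match, and their 250 bases before the start held none with 1 mismatch. Of all promoters, 0.253% held an exact match and 6.74% a match with at most 1 mismatch, both over the 300 bases.

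Ihh transcripts were concentrated at the hypertrophic end of the chondrocyte classes. Pre-HC-like cells stood at 134 CPM (129 to 140.4) with 2024 UMIs, 68.1% of all Ihh UMIs, and HC-like cells at 114 CPM (103 to 125) with 404 UMIs. The level then dropped to 13.03 CPM (9.92 to 16.8) in proliferating and 12.5 CPM (11.1 to 14.1) in maturing chondrocyte-like cells, whose intervals overlapped, and to 3.33 CPM (5 UMIs) in resting-like cells. In osteoblast-like cells Ihh stood at 1.21 CPM in the immature and 1.67 CPM in the mature class, near the 0.67 CPM (0.45 to 0.97) of leukocyte-like cells. An Ihh UMI was found in 61.5% of pre-HC-like and 43.4% of HC-like cells. After each cell was thinned to 5000 UMIs these shares were 28.1% (24.3 to 32.3) and 26.4%, against 3.97% in maturing chondrocyte-like cells and 0.34% in leukocyte-like cells. Within the pre-HC-like class the cluster led by Pth1r stood at 165 CPM and the one led by Il17b at 65.1 CPM (clusters are called here by 1 of their 10 leading genes), and the fullest single cell held 71 Ihh UMIs. Which of pre-HC-like and HC-like was the higher class depended on how the cells were clustered and filtered: pre-HC-like was highest in 4 of 9 alternatives and HC-like in the others.

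**Figure D1:**
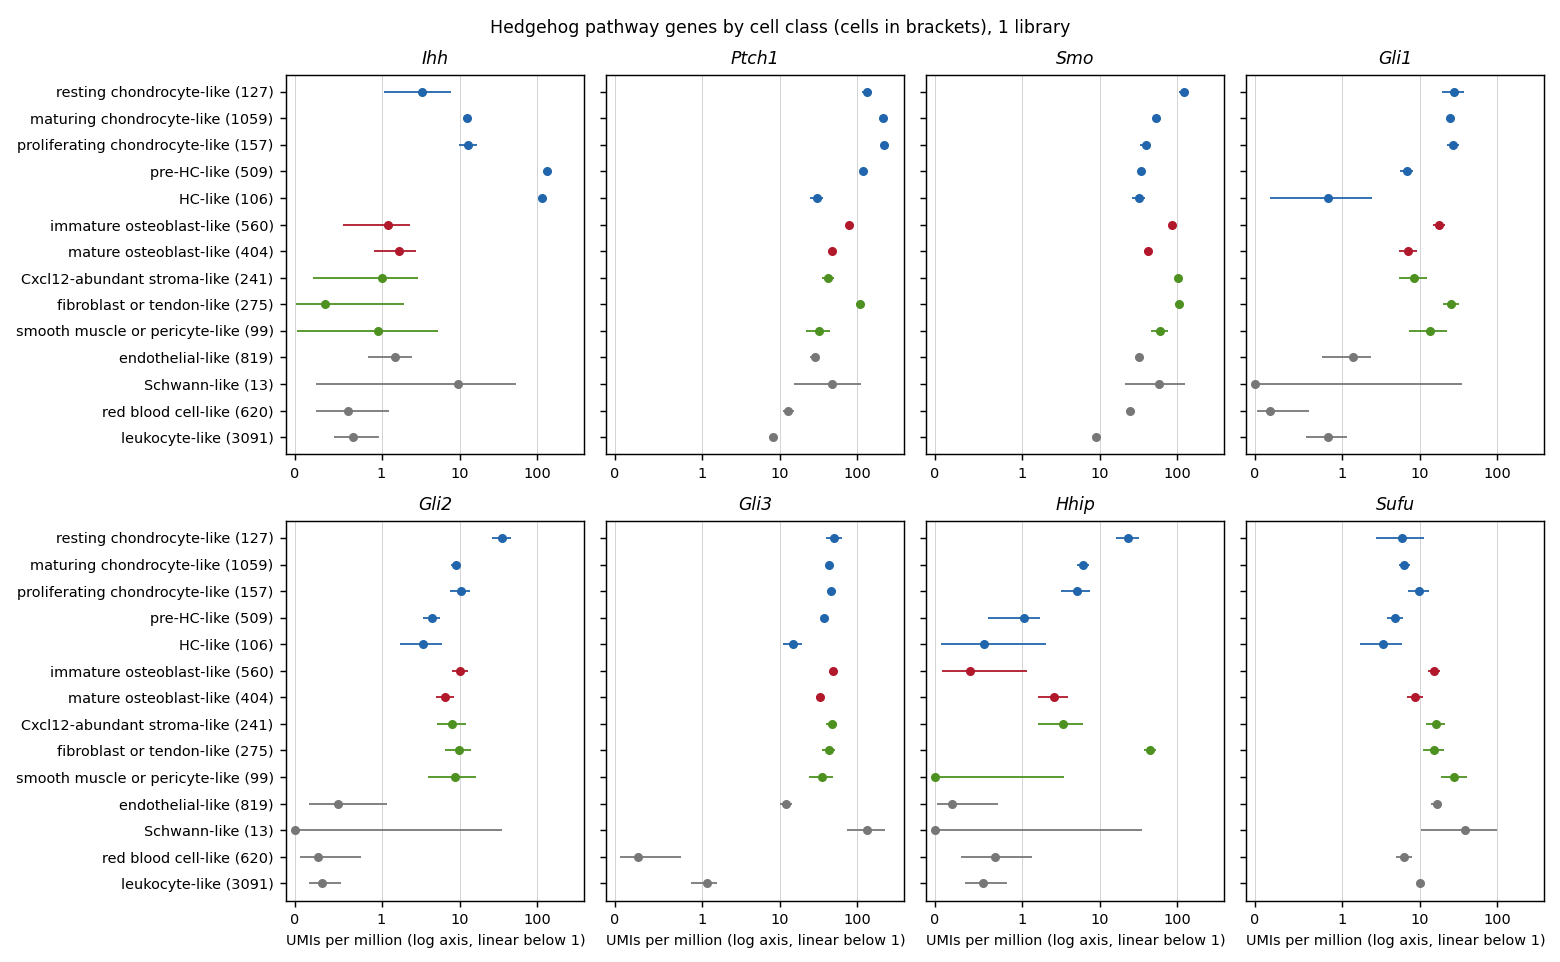
Levels of the 8 Hedgehog genes (CPM, log axis) in each cell class, with points for the class and bars for the exact 95% counting interval. Ihh peaks in the pre-HC-like (134 CPM) and HC-like (114 CPM) classes, Ptch1 in the maturing and proliferating chondrocyte-like classes, and Hhip in the fibroblast or tendon-like class (44.8 CPM).

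Ptch1, the receptor and a target of the signal, was highest in chondrocyte-like classes with a lower level of Ihh. It stood at 219 CPM (206 to 233) in proliferating and 215 CPM (209 to 221) in maturing chondrocyte-like cells, with overlapping intervals. Resting-like cells had 133 CPM (116 to 153), pre-HC-like cells 117 CPM (112 to 123) and fibroblast or tendon-like cells 107 CPM (95.4 to 119.6), again without separation. Levels were lower in immature osteoblast-like cells (76.9 CPM, 70.8 to 83.5) and mature osteoblast-like cells (47.8 CPM, 43.3 to 52.7), and HC-like cells were at 30.4 CPM (24.9 to 36.7). Leukocyte-like cells, as background, had 8.19 CPM (7.34 to 9.11) and red blood cell-like cells 13.03 CPM (11.0 to 15.3), both below the HC-like interval. Single leukocyte-like clusters lay between 3.50 and 41.9 CPM. That range includes the HC-like level, but its top came from a cluster of 39 cells. In thinned cells a Ptch1 UMI was seen in 55.1% of maturing and 43.9% of pre-HC-like cells, in 19.8% of HC-like cells and in 3.74% of leukocyte-like cells. Chondrocyte-like cells together held 72.7% of all Ptch1 UMIs.

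Smo, which passes the signal into the cell, had a different order. Resting-like cells (121 CPM, 104 to 139.7), fibroblast or tendon-like cells (104 CPM), Cxcl12-abundant stroma-like cells (103 CPM) and immature osteoblast-like cells (85.2 CPM) formed an upper set in which each neighbour overlapped the next. Smooth muscle or pericyte-like cells were at 59.6 CPM. Maturing chondrocyte-like cells stood at 52.4 CPM, mature osteoblast-like cells at 41.6 CPM, pre-HC-like cells at 33.6 CPM and HC-like cells at 31.8 CPM. In the lineages taken as background Smo was uneven, at 8.98 CPM with a thinned share of 3.53% in leukocyte-like and 24.6 CPM with 9.71% in red blood cell-like cells, against 13.2% of HC-like cells.

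Gli1, the Gli gene whose transcription depends most directly on the signal, shared the order of Ptch1 only in part. Gli1 levels in resting-like (27.3 CPM, 19.6 to 37.1), proliferating (26.9 CPM), fibroblast or tendon-like (25.4 CPM) and maturing chondrocyte-like cells (24.8 CPM, 22.7 to 27.0) could not be separated. For Ptch1 the resting-like and fibroblast or tendon-like classes had stood below the other 2, level with pre-HC-like cells. Immature osteoblast-like cells were at 17.99 CPM (15.1 to 21.3), while mature osteoblast-like cells at 7.14 CPM (5.44 to 9.19) and pre-HC-like cells at 6.84 CPM (5.58 to 8.30) overlapped each other at a lower level. HC-like cells held 3 Gli1 UMIs (0.84 CPM, 0.17 to 2.46), the same level as leukocyte-like cells (0.84 CPM). Gli2, the main activator, stood highest in resting-like cells at 34.7 CPM (25.9 to 45.5), above the intervals of the other classes of 50 or more cells. In alternatives with a larger resting-like class it was 16.7 CPM (357 cells, at least 2000 genes per cell) and 14.4 CPM (526 cells, resolution 0.6), with the next class at 11.4 and 9.73 CPM. Its levels in the other chondrocyte-like, osteoblast-like and stromal classes ranged from 3.37 CPM in HC-like to 10.4 CPM in proliferating cells, against 0.31 CPM in leukocyte-like cells. Gli3, the main repressor, had similar levels in most skeletal classes: it lay between 32.8 CPM in mature osteoblast-like and 50.7 CPM in resting-like cells, and only HC-like cells (14.9 CPM, 11.2 to 19.5) stood below that band. The 13 Schwann-like cells had 134 CPM of Gli3 (73.0 to 224) from 14 UMIs.

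Hhip, a membrane-bound protein that captures Hedgehog ligands and is a target of the signal, was highest outside the chondrocyte-like classes. Fibroblast or tendon-like cells had 44.8 CPM (37.4 to 53.3), with 129 UMIs or 30.6% of all Hhip UMIs, and this class remained the highest in 9 of 9 alternatives. Resting-like cells followed at 23.3 CPM (16.3 to 32.5) and maturing chondrocyte-like cells at 6.09 CPM (5.09 to 7.22), each apart from the class above. The resting-like value was 12.1 CPM when cells under 2000 genes were left out, and 8.69 CPM at resolution 0.6. In thinned cells a Hhip UMI was found in 11.2% of fibroblast or tendon-like and 12.8% of resting-like cells. Immature osteoblast-like cells held 3 Hhip UMIs, HC-like cells 2 and smooth muscle or pericyte-like cells 0, for which the exact interval reaches 3.55 CPM. The red blood cell-like level of 0.69 CPM came from 8 UMIs in 1 cell. Sufu, which restrains the Gli proteins in the cytoplasm, was spread over nearly all classes. Among classes of 50 or more cells Sufu was highest in smooth muscle or pericyte-like cells (27.9 CPM, 18.7 to 40.1), while the 13 Schwann-like cells had 38.2 CPM (10.4 to 97.7) from 4 UMIs. Leukocyte-like cells, at 10.2 CPM, held 33.1% of the Sufu UMIs, and they also held 41527411 of the 137250350 UMIs of all genes. Among chondrocyte-like cells the range of Sufu was 3.37 CPM in HC-like to 9.71 CPM in proliferating cells.

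Along the chondrocyte classes the ligand and the targets moved in opposite directions at the step from maturing to pre-HC-like cells. A log2 ratio was formed for each gene with 1 CPM added, and it was called past the fold when it exceeded 2-fold with 10 CPM or more in either class. Ihh was higher in pre-HC-like cells by 3.32 (3.15 to 3.49), whereas Ptch1 was lower by 0.87 (log2 -0.87, -0.95 to -0.79). Gli1 had a log2 ratio of -1.72 (-1.99 to -1.45), and Hhip, which stood below 10 CPM in both classes, one of -1.78 (-2.20 to -1.36). Gli3 differed little (-0.19). Of the 5 members at 10 CPM 1 was past 2-fold upwards, Ihh, and 1 downwards, Gli1, against 6.65% of 7048 genes past 2-fold, 2.68% upwards and 3.97% downwards. The size of the Ihh difference moved with the processing, and it was 1.81 when cells marked as doublets were left out. In that setting Ptch1 stood at 198 CPM in maturing and 155 CPM in pre-HC-like cells, a smaller fall than from 215 to 117 CPM. At the next step, from pre-HC-like to HC-like cells, Ihh differed by -0.24, while Ptch1 (-1.91, -2.18 to -1.64) and Gli3 (-1.26, -1.64 to -0.88) were past 2-fold downwards, 2 of the 4 members at 10 CPM. Here 28.4% of 8024 genes were past 2-fold and 5.61% were so downwards. Gli1 had a ratio of -2.09 (-2.87 to -1.30) that rested on 3 UMIs in HC-like cells.

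At the other end, resting-like against maturing chondrocyte-like cells had 7 members at 10 CPM, of which Smo (1.19, 0.96 to 1.41), Gli2 (1.85, 1.42 to 2.27) and Hhip (1.78, 1.27 to 2.28) were past 2-fold upwards and Ihh (-1.64) downwards. The background was 12.6% of 7657 genes, 8.82% upwards and 3.81% downwards. These 3 upward calls depended on the extent of the resting-like class, since all of them were within 2-fold with at least 2000 genes per cell (Smo 0.42, Gli2 0.68, Hhip 0.97) and at resolution 0.6 (0.52, 0.71, 0.67), and Smo was so at a mitochondrial limit of 20% (0.95). Gli1 did not differ beyond counting error (0.14), and Ptch1 was lower in resting-like cells (-0.68). Proliferating against maturing cells had 6 members at 10 CPM and none past 2-fold, with Ptch1 at 0.03 and Gli1 at 0.12, where 9.47% of genes were past it. Between the 2 maturing clusters, the one led by F3 had less Ptch1 than the one led by Matn1 (149 against 242 CPM) and the same Ihh (12.5 CPM in each), and none of 6 members was past 2-fold (background 7.51%).

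**Figure D2:**
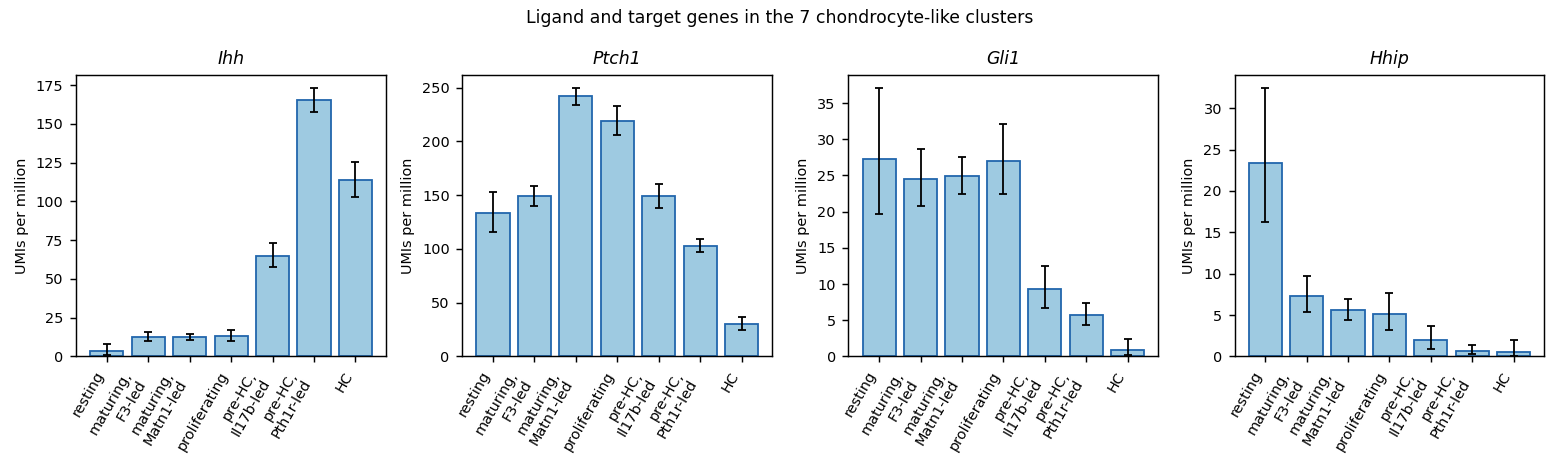
Levels of Ihh, Ptch1, Gli1 and Hhip (CPM) in the 7 chondrocyte-like clusters, as bars from 0 with exact 95% counting intervals. Ihh is highest in the Pth1r-led pre-HC-like cluster (165 CPM), where Ptch1 (103 CPM) and Gli1 (5.76 CPM) are below their levels in the maturing clusters.

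The opposed pattern was also present within the pre-HC-like class. Its cluster led by Pth1r had more Ihh than the one led by Il17b (log2 1.33, 1.16 to 1.5), the only one of 4 members past 2-fold (background 7.67% in either direction and 5.58% upwards), and less Ptch1 (-0.53) and Gli1 (-0.60). When the 509 cells were grouped by their own Ihh UMIs, Ptch1 stood at 154 CPM (143 to 165) in the 196 cells with none, 119.6 CPM (109.6 to 130.3) in the 155 cells with 1 to 3, and 81.5 CPM (74.2 to 89.4) in the 158 cells with 4 or more. Gli1 stood at 10.0 CPM (7.46 to 13.2), 6.37 CPM and 4.31 CPM (2.76 to 6.41) in the same groups. Gli3 stayed between 35.9 and 37.8 CPM and Smo went from 38.5 to 28.6 CPM. Pth1r, which encodes the receptor of parathyroid hormone-related protein, went the other way, from 663 over 1079 to 1635 CPM, as did Col10a1, the collagen of hypertrophic cartilage, at 423, 414 and 1203 CPM. The order of Ptch1 was the same within each cluster (164, 142 and 115 CPM in the Il17b-led one, 144, 109 and 75.9 CPM in the Pth1r-led one). Scrublet had marked 5 of the 509 cells, all of them without an Ihh UMI. Leaving them out, with the clusters kept, could therefore change that group only, which then stood at 155 CPM (191 cells). The groups differed in depth, with median UMIs of 25333, 28211 and 34309.5. After thinning, a Ptch1 UMI was found in 47.7% (42.5 to 52.9) of pre-HC-like cells without an Ihh UMI and in 34.3% (26.5 to 42.7) of those with one, and a Gli1 UMI in 6.30% and 0.70%.

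At full depth, UMIs of ligand and receptor were found in the same cell at about the rate at which the class as a whole held Ptch1. Of the 509 pre-HC-like cells 255 (50.1%) had a UMI of both Ihh and Ptch1 at full depth, so that 81.5% of the cells with Ihh had Ptch1, against 83.7% of the class. The pre-HC-like cells with Ihh had a median of 31195 UMIs and those without 25333. After thinning, as given above, 34.3% of pre-HC-like cells with an Ihh UMI and 47.7% of those without had a Ptch1 UMI. Among HC-like cells 25 had both, or 54.3% of those with Ihh against 50% of the class. Those with Ihh were deeper, with a median of 35744 UMIs against 31825 in those without. After thinning, 7.14% (0.88 to 23.5) of the 28 HC-like cells with an Ihh UMI had a Ptch1 UMI. Of the 78 without one, 24.4% (15.3 to 35.4) did. Among the maturing chondrocyte-like cells 116 had both genes at full depth, or 95.1% of those with Ihh against 88.1% of the class. There the cells with Ihh had a median of 25382.5 UMIs and those without 18741. After thinning, 52.4% of maturing cells with an Ihh UMI and 55.2% of those without had a Ptch1 UMI. In maturing cells Ptch1 stood at 217 CPM without Ihh, 216 CPM with 1 to 3 Ihh UMIs and 121 CPM with 4 or more, although the last group had 16 cells. In HC-like cells it stood at 30.04, 48.2 and 20.8 CPM in 60, 17 and 29 cells, without an order.

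**Figure D3:**
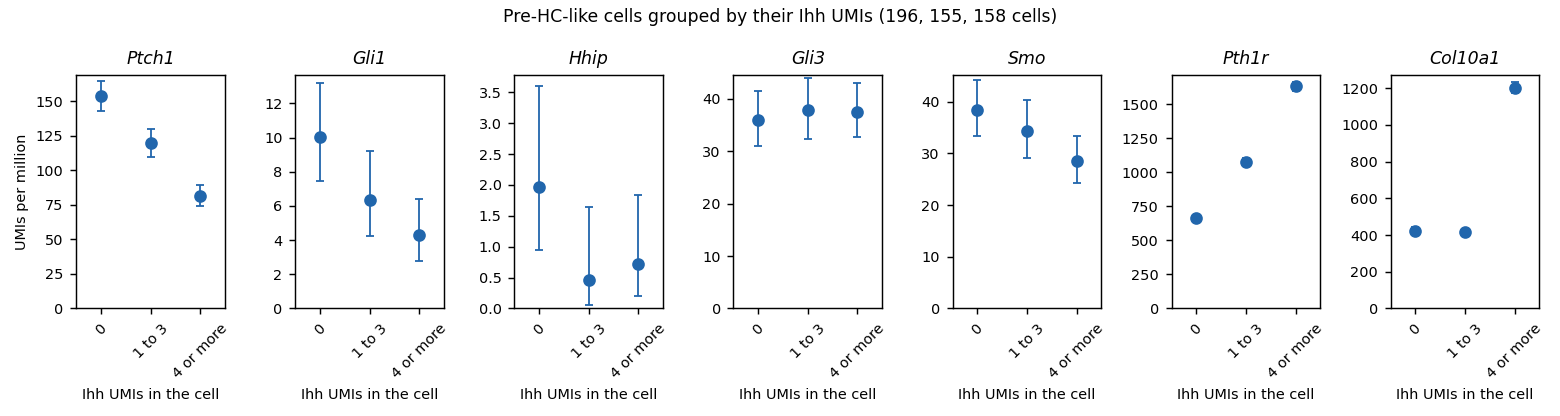
Levels (CPM, points with exact 95% counting intervals) of 7 genes in pre-HC-like cells with no Ihh UMI, 1 to 3 or 4 or more. Ptch1 goes from 154 to 81.5 CPM and Gli1 from 10.0 to 4.31 CPM, while Pth1r goes from 663 to 1635 CPM and Gli3 stays level.

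As a pool, osteoblast-like cells had lower levels of the receptor and the target genes than pooled chondrocyte-like cells, and they held little ligand. The order did not hold for each class. Ptch1 was higher in immature (76.9 CPM) and mature (47.8 CPM) osteoblast-like cells than in HC-like cells (30.4 CPM). Gli1 in immature osteoblast-like cells (17.99 CPM) was above the pre-HC-like (6.84 CPM) and HC-like (0.84 CPM) levels. The other chondrocyte-like classes stood above both osteoblast-like classes for these genes. Pooled over their classes, chondrocyte-like cells (1958) had 59.8 CPM of Ihh and osteoblast-like cells (964) 1.45 CPM, a log2 difference of -4.63. Ptch1 stood at 166 and 61.5 CPM (-1.42, -1.52 to -1.33), and these were the 2 of 6 members past 2-fold, both downwards, where 25.8% of 8251 genes were past 2-fold, 16.3% upwards and 9.43% downwards. Gli1 (17.4 and 12.2 CPM) differed by -0.47 (-0.68 to -0.26) and Hhip (4.48 and 1.58 CPM) by -1.09, but both values depended on the processing: Gli1 reached -1.06 and Hhip -0.65 at a lower clustering resolution. Gli2 and Gli3 were level (0.04 each), and Smo (0.44) and Sufu (0.88; 11.9 against 6.0 CPM) were higher in osteoblast-like cells. Within the osteoblast-like cells the mature class was lower than the immature one for Smo (-1.02) and Gli1 (-1.22, -1.62 to -0.83), the 2 of 6 members past 2-fold, and for Ptch1 (-0.67). The background was 22.9% of 8371 genes, with 4.42% upwards and 18.5% downwards. Hhip had 22 UMIs in mature and 3 in immature cells (1.37, 0.73 to 2.01).

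The reporter allowed the osteoblast-like cells to be split by origin. A cell was taken as HC-derived when it held more than 14 UMIs of WPRE, the viral element downstream of tdTomato in the reporter, and 251 of 964 osteoblast-like cells (26.0%) were so. The same Cre deletes 1 Irx3 allele in the HC lineage. The origin of a cell and this deletion therefore cannot be told apart in any comparison of HC-derived with other cells. Ptch1 stood at 57.4 CPM in HC-derived and 63.3 CPM in the other osteoblast-like cells, a log2 difference of -0.14 whose interval of -0.34 to 0.06 includes none. Gli1 was at 9.02 and 13.7 CPM (-0.55, -0.99 to -0.11). Hhip, with 10 and 15 UMIs, gave 0.37 (-0.37 to 1.10), Gli3 0.13, Gli2 0.08, Smo -0.17 and Sufu -0.34. None of 5 members at 10 CPM was past 2-fold, and 2.4% of 7953 genes were. HC-derived cells made up 20.9% of immature and 33.2% of mature osteoblast-like cells, and within the immature class the differences were 0.00 for Ptch1 (-0.27 to 0.26) and -0.41 for Gli1 (-0.98 to 0.15), with 3.81% of genes past 2-fold. Within the mature class Gli3 was higher in HC-derived cells (39.8 against 29.1 CPM, log2 0.44, 0.10 to 0.77) and Gli1 gave -0.47 (-1.18 to 0.23). None of the 3 members at 10 CPM was past 2-fold there, and 1.9% of genes were. The share of all genes whose interval leaves out 0 was not taken, so the Gli3 difference has no background of that kind. In the Cxcl12-abundant stroma-like class the 43 HC-derived cells held no Gli1 UMI, and the 198 others held 25 (10.4 CPM, 6.74 to 15.4). For the 43 cells 5.38 CPM is only a rough bound at their depth. It is lower than the exact limit, so the gap to the interval of the others is smaller than it appears.

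**Figure D4:**
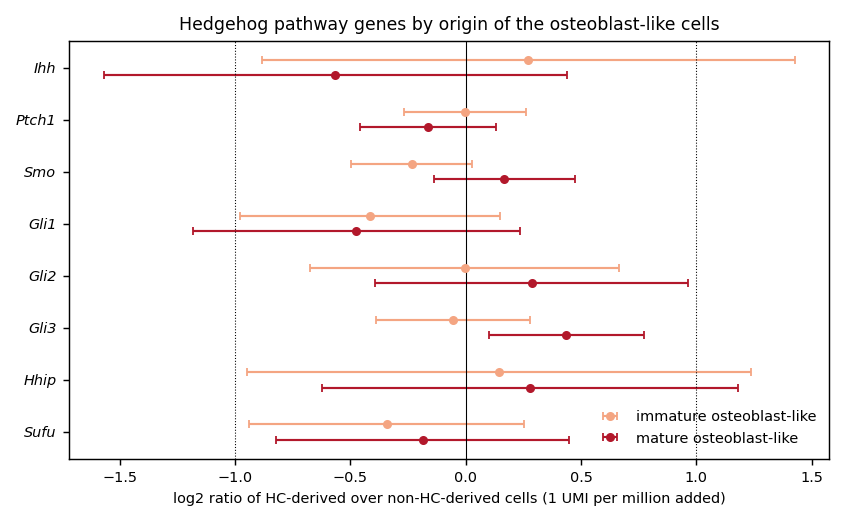
Log2 ratio of HC-derived over other cells for the 8 genes within the immature and the mature osteoblast-like class, with 95% counting intervals and dotted lines at 2-fold. The intervals include 0 apart from that of Gli3 in the mature class (0.10 to 0.77), which lies within 2-fold.

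The fibroblast or tendon-like cells were set against immature osteoblast-like cells, a bone-forming class that also held Gli1 with little Ihh. Hhip was higher by 5.03 (4.50 to 5.56), the only one of 7 members past 2-fold where 17.8% of 9143 genes were (10.9% upwards), and Ptch1 and Gli1 were higher by 0.47 each. The class held 2 clusters. The cluster led by Tnmd, a tendon gene, had 69.9 CPM of Ptch1 and 55.3 CPM of Hhip, and the one led by Aspn 162 and 29.3 CPM, log2 differences of -1.20 (-1.53 to -0.87) and 0.89 (0.35 to 1.44). Their Gli1 levels were 27.95 and 21.5 CPM. Of the 7 members at 10 CPM, Ptch1 alone was past 2-fold, and the background was 16.3% (4.04% downwards).

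Besides the 8 members, 48 further genes of the pathway were listed by role. Among the 7 genes for ligands and their release, Shh gave 1 UMI in all cells. Dhh, the ligand of Schwann cells and testis, was named after its values were seen. It stood at 239 CPM (154 to 352) in the 13 Schwann-like cells and at 119 CPM (96.9 to 144) in the 80-cell endothelial-like cluster whose leading genes were Eln, Stmn2 and Gja4, against 7.16 CPM in the other endothelial-like cluster. Scube1, Scube2 and Scube3 encode secreted proteins of the family that helps free Hedgehog ligands from the membrane, and the class with the highest level differed between them. Scube1 was highest in pre-HC-like cells (64.4 CPM, 60.4 to 68.6), Scube2 in resting-like cells (78.0 CPM, 64.5 to 93.5) and Scube3 in HC-like cells (50.03 CPM, 43.0 to 57.9). In HC-like cells, where Ihh stood at 114 CPM, Scube1 was past 2-fold lower than in pre-HC-like cells, as were 5.61% of all genes. All 3 Scube genes were past 2-fold lower in osteoblast-like than in chondrocyte-like cells, with log2 differences of -3.02, -2.89 and -2.65. Of all 8251 genes 9.43% were so. Disp1, the ligand exporter, reached 15.6 CPM in fibroblast or tendon-like and 10.1 CPM in pre-HC-like cells.

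Among the 7 receptors, co-receptors and glypicans, the co-receptors Boc and Gas1 were low in the pre-HC-like class, where Ihh was high. They were high in the fibroblast or tendon-like class and in the resting-like class, which shared its markers as given above. Boc stood at 162 CPM (142 to 184) in resting-like, 100.1 CPM in fibroblast or tendon-like and 4.65 CPM in pre-HC-like cells. Gas1 stood at 368 CPM in Cxcl12-abundant stroma-like and 308 CPM in immature osteoblast-like cells, 113 CPM in resting-like and 1.79 CPM in pre-HC-like cells. Cdon, at 65.7 CPM in fibroblast or tendon-like and 40.7 CPM in resting-like cells, was still at 20.3 CPM in pre-HC-like cells and at 2.0 CPM in osteoblast-like cells. The glypican gene Gpc3 had 342 CPM in fibroblast or tendon-like cells. With both osteoblast-like classes pooled, it was the only 1 of 22 listed genes at 10 CPM past 2-fold between HC-derived and other cells (15.0 against 36.2 CPM, log2 -1.22, -1.56 to -0.88), beside 2.4% of all genes. Within the immature class Gpc3 (-1.53) and Ccnd1 (1.01, 95.2 against 46.9 CPM) were past it out of 25, beside 3.81% of all genes. Within the mature class none of 20 listed genes was, beside 1.9% of all genes.

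Of the 23 cilium and cytoplasmic regulators 18 reached 10 CPM in osteoblast-like or chondrocyte-like cells, and 15 of these were within 2-fold. Evc (1.55), part of the complex that carries the Smo signal at the cilium, and Prkaca (1.66), the catalytic subunit of protein kinase A, were past 2-fold higher in osteoblast-like cells, and Tulp3 (-1.36), a ciliary trafficking gene, was lower. Gsk3b, a kinase that phosphorylates Gli proteins for processing and acts in Wnt signalling as well, stood at 305 CPM in HC-like, 151 CPM in pre-HC-like and 65.8 CPM in maturing chondrocyte-like cells. Over all 48 listed genes, 28 reached 10 CPM in osteoblast-like or chondrocyte-like cells, of which 3 were higher and 5 lower, near the 25.8% of all genes past 2-fold, and 25 did so for pre-HC-like against maturing cells, of which 2 were higher (Scube1, Gsk3b) and 3 lower (Scube2, Boc, Gas1), beside 6.65% of all genes. The median log2 ratio of the 6 members in the first of these comparisons was -0.22, against 0.18 over all genes tested.

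Of the 11 further targets, Pthlh, which belongs to the feedback with Ihh, was found at 54.0 CPM (42.9 to 67.1) in resting-like and 19.8 CPM in fibroblast or tendon-like cells. It stood at 1.4 CPM in maturing chondrocyte-like cells, a log2 difference of 4.52 (4.09 to 4.95) from resting-like cells, in which 10 of the 11 fibroblast or tendon markers were also at 10 CPM. Foxd1 reached 32.7 CPM in fibroblast or tendon-like and 15.2 CPM in HC-like cells. Foxc1 was at 105 to 115 CPM in the maturing, proliferating and pre-HC-like classes and at 48.9 CPM in HC-like cells, and Ccnd1, a cell cycle gene, went from 71.5 CPM in maturing to 17.99 CPM in HC-like cells. In mature against immature osteoblast-like cells 8 of 25 listed genes were past 2-fold lower, among them Gas1 (-2.01), Evc (-1.35) and Foxc2 (-1.49), and 1, Boc, was higher (1.01), beside the background of 18.5% downwards.

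**Figure D5:**
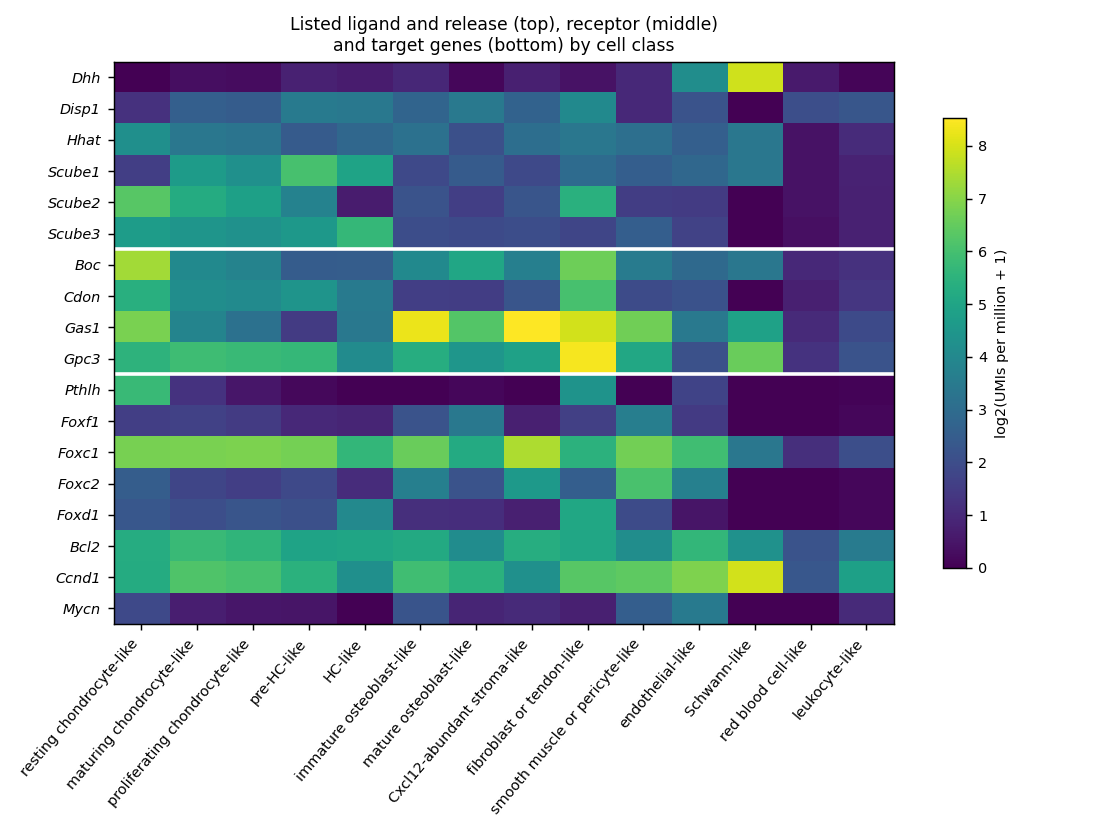
Heatmap of 18 listed pathway genes (rows, in 3 groups by role) over the cell classes (columns), coloured by log2(CPM + 1). Scube1 is brightest in the pre-HC-like column, Boc and Pthlh in the resting-like column, Gpc3 in the fibroblast or tendon-like column and Dhh in the Schwann-like column.

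Across the 28 clusters of 50 or more cells, all from the same library, the levels of Gli1 correlated with those of Gli2 (Pearson's r = 0.93), Gli3 (0.91) and Ptch1 (0.85), as a description of these clusters. Leukocyte-like and red blood cell-like clusters, where the Gli genes were low, and the 2 unnamed clusters were among them. Every r given here therefore includes the difference between skeletal and blood cells, and its value over skeletal clusters alone was not tested. The ligand was less alike: r with Ihh was 0.59 for Ptch1, 0.30 for Gli1 and 0.02 for Hhip. Among 13748 genes, those most like Ihh over the clusters were Clic3, Eps8l2 and Gm45397 (r = 0.94 each), and those most like Ptch1 were Sox8 (0.95), Tmed1 and Sobp (0.94 each). For Gli1 they were Col16a1, Islr and Tenm3 (0.94 each), for Gli2 Hoxc10, Hoxc6 and Ephb3 (0.95 each) and for Gli3 Efemp2 (0.98), Gpx8 and Rcn3 (0.97 each). Hhip was closest to Bnc2 (0.93), Mfap4 and Agtr2, Smo to Nfix, Nenf and Tmem231 (0.93 each), and Sufu to Hnrnph1 (0.92), Srek1 and Tcf12.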

How the data were processed

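The deposited matrix held UMI counts per gene and cell, which per the labels and the submitters' processing notes the authors made with Cell Ranger 3.1.0 on mm10 with tdTomato and WPRE added, and analysed further with Seurat 3. The 4 sequencing entries of the library were counted together. The annotation release and any strand setting are not given in the sources used here, and the second library of the study, from postnatal day 56, was not analysed here. Symbols were matched to GENCODE M21 for 30934 of 31053 gene IDs.

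Of 14181 barcodes with 158281984 UMIs, 8705 held at least 1600 genes, and 8255 of these held at most 10% mitochondrial and at most 50% ribosomal UMIs and were kept. Counts were scaled to 10000 per cell and logged, and 2000 variable genes (Hedgehog genes left out), 30 principal components, 20 neighbours and Leiden resolution 1 were used in scanpy 1.11.5 (Python 3.11.15). Clusters were named from 17 marker lists without Hedgehog genes. A name required at least 3 markers at 10 CPM, limits on Col1a1, Col2a1 and Ptprc, and either a marker among the 10 leading genes or a mean marker level at least 1 SD above the mean of clusters. Leukocyte-like clusters were taken by Ptprc and proliferating chondrocyte-like cells by a Top2a UMI in 50% or more of cells. These limits were set after the clusters were seen, and the rebuilt names may differ from those of the study. Scrublet marked 588 barcodes (4.15%), 460 of them among the kept cells, and these stayed in except in 1 alternative.

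UMIs were summed per class and given as CPM with exact Poisson 95% intervals, and shares of cells with exact Clopper-Pearson intervals, both for counting error only. Where a limit of 3 UMIs is given for a group with 0 UMIs, it is a rougher bound, lower than the exact 95% limit. Shares were also taken after each cell was thinned to 5000 UMIs, with shallower cells left out. Log2 ratios had 1 CPM added, and their 95% intervals combine the counting errors of both levels by a normal approximation. The ratio script was tested on simulated counts. Levels were not compared between genes, since 3′ counts differ in capture from gene to gene.

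Named were the 8 members throughout, other listed pathway genes with at least 50 UMIs in the skeletal classes and a 2-fold difference between classes, and the 3 genes most like each member. A result for 1 of the listed pathway genes is not reported here. The members and lists were chosen with earlier results of these data known. Alternatives varied the gene minimum, the mitochondrial limit, doublets, the resolution, the number of variable genes, the use of Hedgehog genes in clustering, the averaging over cells, the reporter threshold, the filter on low genes and the thinning depth.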

Additional observations from a re-analysis of the deposited data

How the results depend on the processing

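None of the 7 ratios below reversed its direction under the alternatives run, but several sizes moved by more than counting error, and the cause was not tested. The order of the Ihh levels did turn: HC-like was above pre-HC-like in 5 of 9 alternatives, for example at 112 against 95.7 CPM with at least 2000 genes per cell. The Ihh difference of pre-HC-like over maturing chondrocyte-like cells, 3.32 on the log2 scale, was 4.03 at a mitochondrial limit of 5%, 2.56 at 20%, 1.81 without doublets, 2.70 at resolution 0.6, 3.02 with 3000 variable genes, 2.49 with Hedgehog genes allowed in clustering and 3.50 as a mean of single-cell CPM. For osteoblast-like over chondrocyte-like cells, Ptch1 (-1.42) was -1.75 at the 5% limit, -1.70 at resolution 0.6 and -1.52 with 3000 variable genes. Gli1 (-0.47) was -0.92, -1.06 and -0.96 under the same 3 settings. Hhip (-1.09) was -0.65 at resolution 0.6, -0.63 with 3000 variable genes and -1.58 as a mean of single-cell CPM. At resolution 0.6 and with 3000 variable genes no immature osteoblast-like class could be named, so those values rest on fewer osteoblast-like cells. Between HC-derived and other osteoblast-like cells Ptch1 ranged from -0.23 to -0.02 and Gli1 from -0.86 to -0.43 over 10 alternatives, and Hhip (0.37) was 1.22 when 1 tdTomato UMI marked a cell as HC-derived. The 8 listed genes past 2-fold between osteoblast-like and chondrocyte-like cells became 14 without a filter on low genes. Depth limited Hhip, Ihh, Gli1 and Gli2, which rested on 25 UMIs or fewer in several classes each. No paired analysis was possible because there was 1 library, with no replicate numbers.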
